A study of Mus musculus with 14 samples.

Results

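The 30 genes described here make, sense, esterify and export cholesterol. They were taken by symbol from the 33459 gene IDs of the count table, and all 30 were found. They comprise 7 enzymes of the early synthesis pathway, 11 enzymes of the late pathway, 4 genes of SREBP control, 1 sterol carrier, 6 LXR and efflux genes and 1 gene of sterol ester formation. They were followed in FHL2 knockout mice and in wild-type mice; FHL2 is a protein of LIM domains that partners many transcription factors. The 4 groups were 3 KO (FHL2-/-) and 3 WT samples of gonadal white adipose tissue (gWAT), and 4 KO and 4 WT hearts. Every mouse was C57BL/6, 21 weeks of age, and had been fed high-fat diet for 8 weeks, WT mice included, so the effect of the diet is not measured. The labels used here do not say how the FHL2 allele was made, whether samples were pooled, or whether every library is from its own animal, so p-values measure only the spread between these samples.

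Values are read counts from mRNA sequencing, given as CPM, the counts scaled to a fixed library size, and fold changes are log2(KO/WT) ± standard error (SE). Totals were 15105019 to 16040188 counts in gWAT libraries and 10835092 to 13272412 in heart libraries. Fhl2 itself was at 0.257 to 0.462 CPM in KO against 4.35 to 6.26 CPM in WT gWAT, and at 28.6 to 37.8 CPM in KO against 1031 to 1396 CPM in WT hearts, with no overlap in either tissue. Adipoq, which encodes the fat-cell hormone adiponectin, was at 1759 to 4114 CPM in gWAT and 2.46 to 27.2 CPM in heart, and Myh6, a myosin of heart muscle, at 3.40 to 5.94 CPM in gWAT and 9739 to 12710 CPM in heart, as the tissue labels say. A fall in bulk tissue can come from fewer cells of a type or from less RNA per cell, and these cannot be told apart here.

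Cholesterol is built from acetyl-CoA through mevalonate, farnesyl diphosphate, squalene and lanosterol. The transcription factor SREBP2 sets the level of nearly all of these enzymes: when sterol is scarce, SCAP escorts it from the endoplasmic reticulum to be cut and sent to the nucleus, and when sterol is plentiful the INSIG proteins hold it back. Its sites, called sterol regulatory elements, work beside binding sites for NF-Y and Sp1. The liver X receptors (LXR) act on the other side: bound by oxysterols, they switch on genes that export cholesterol. Fat cells hold a large pool of free cholesterol, and macrophages that engulf lipid in obese fat store it as ester.

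In KO gWAT, 7 of the 18 sterol synthesis enzymes fell and 1 rose, and of the 6 LXR and efflux genes 0 fell and 1 rose. All 30 genes passed the filter on low counts there. At an adjusted p under 0.05, 9 fell: the enzymes Mvd, Sqle, Lss, Cyp51, Msmo1, Nsdhl and Dhcr7, the sterol sensor Insig1 and the esterifying enzyme Soat1. Among all 15200 tested genes, 3.48% fell. Fdft1 and Apoe rose, 2 of 30, against 2.01% of all tested genes. The median log2 fold change was −0.33 over the 30 genes and 9.3e-05 over all tested genes, and 25 of the 30 values were negative. The KO libraries were all below the WT libraries for 15 genes and all above for 3, whereas 14.5% of all tested genes lay below and 13.3% above. The p-values are from edgeR's quasi-likelihood test adjusted by Benjamini-Hochberg across the whole gWAT table. The 9 calls became 3 without WT replicate 3 (Lss, Cyp51 and Dhcr7) and 0 without WT replicate 4 or KO replicate 1, 3 or 4, where the whole table had 132 calls without WT replicate 3 and 0 in the other 4 fits. They became 12 without WT replicate 1, where all 9 were kept and Fdps, Srebf2 and Abcg1 were added. The whole table then had 2908 calls among 15578 tested genes, against 529 lower and 305 higher among 15200 in the main fit. In each of those 6 fits all 11 genes kept their direction, with unadjusted p of at most 0.0177.

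**Figure D1:**
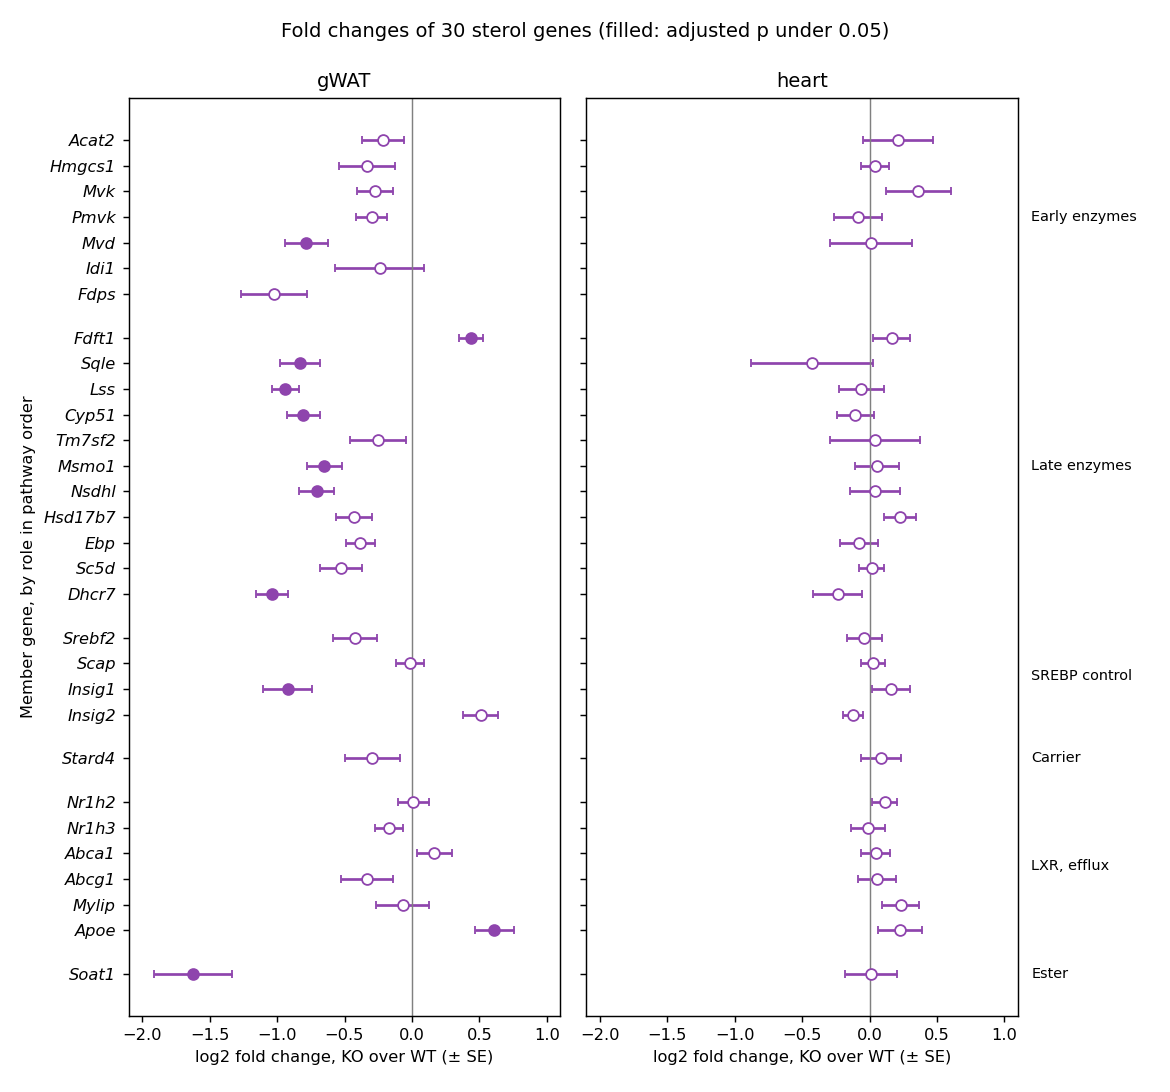
Log2 fold change of KO over WT (± SE) for each gene in gWAT (left, n = 3 per group) and heart (right, n = 4 per group), ordered by role and pathway step; filled points passed the adjusted p of 0.05. In gWAT 25 of 30 points lie below 0, and in heart, where 28 genes were tested, all points are open.

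Early enzymes lead from acetyl-CoA to farnesyl diphosphate, which also feeds protein prenylation. Of the 7, 1 fell, 7 had negative values, and the median log2 fold change was −0.30. Mvd, mevalonate diphosphate decarboxylase, was at 9.97, 8.28 and 7.73 CPM in KO gWAT, against 13.05, 16.6 and 14.98 CPM in WT gWAT. The KO libraries were all lower, and the log2 fold change was −0.78 ± 0.16 (adjusted p = 0.0338). Fdps, farnesyl diphosphate synthase, was at 2.58, 2.57 and 1.74 CPM in KO and 4.69, 3.94 and 5.40 CPM in WT gWAT. Its groups also stood apart, but its log2 fold change of −1.03 ± 0.24 rested on 27 to 89 reads a library and missed the threshold (adjusted p = 0.0506). Fdps did pass with the DESeq2 tool, with no filter on low counts, with the stricter filter, with a robust dispersion and with library totals in place of scaling factors.

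Hmgcs1, which condenses acetoacetyl-CoA to HMG-CoA and was the most abundant enzyme per length, was at 320, 390 and 407 CPM in KO gWAT and 626, 361 and 423 CPM in WT gWAT. WT replicate 1 stood high, WT replicate 3 lay among the KO libraries and WT replicate 4 just above them, and the log2 fold change was −0.33 ± 0.21 (adjusted p = 0.382). Acat2, the thiolase of the entry step, also had WT replicate 1 high, with the other WT libraries among the KO libraries, at 41.0, 37.8 and 36.9 CPM in KO and 56.1, 38.7 and 39.8 CPM in WT (−0.22 ± 0.15, adjusted p = 0.443). Acat2 is 97.7% identical to Acat3 over 1477 bases, and reads could be split between them, though Acat3 held 147 reads in all 6 libraries. Acat2 also matches Tcp1, on the opposite strand, at 98.7% over 445 bases, and Tcp1 held 18793 reads in the 6 libraries against 1782 in KO and 2087 in WT for Acat2, so the Acat2 values are uncertain where counting did not use strand. The kinase genes Mvk (−0.28 ± 0.13, adjusted p = 0.264) and Pmvk (−0.30 ± 0.11, adjusted p = 0.165) did not pass, although every KO library was below every WT library for Pmvk. Idi1, the isopentenyl diphosphate isomerase, had 19 to 40 reads a library and a value of −0.24 ± 0.33 (adjusted p = 0.707), and 684 of its bases are identical in the gene copy Gm13502.

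Late enzymes, from squalene to cholesterol, held most of the falls. Of the 11, 6 fell and 1 rose, 10 had negative values, and the median log2 fold change was −0.65. Their summed level was 485, 505 and 502 CPM in KO gWAT and 811, 686 and 727 CPM in WT gWAT. The lowest WT sum was above the highest KO sum. The summed level of the early enzymes was 445, 503 and 518 CPM in KO and 791, 492 and 564 CPM in WT. These early sums overlapped between the groups. Hmgcs1 held most of each early sum, at 320, 390 and 407 CPM in KO and 626, 361 and 423 CPM in WT. The overlap of the sums therefore follows mainly that gene. By mean log2 CPM, in which each gene counts equally, the early enzymes were lower in all KO libraries, as the late enzymes were. No test set the late enzymes against the early ones.

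Lss, lanosterol synthase, which closes the sterol rings, was at 48.7, 46.8 and 44.5 CPM in KO gWAT, against 97.1, 86.1 and 85.3 CPM in WT gWAT. Libraries within a group were close and the groups far apart (log2 fold change −0.94 ± 0.10, adjusted p = 0.0154). Dhcr7, the reductase that makes cholesterol from its direct precursor, was at 25.1, 22.1 and 22.1 CPM in KO and 52.8, 46.1 and 43.2 CPM in WT. It had the largest fall of the late enzymes, again with tight groups (−1.04 ± 0.12, adjusted p = 0.0154). Sqle, squalene epoxidase, which uses oxygen in the step before Lss, was at 10.2, 9.89 and 10.6 CPM in KO against 16.1, 21.6 and 16.9 CPM in WT (−0.83 ± 0.15, adjusted p = 0.0271). The KO libraries differed little, and WT replicate 3 was the highest.

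Cyp51, lanosterol demethylase, was at 40.9, 32.9 and 36.5 CPM in KO gWAT and 72.6, 60.0 and 60.1 CPM in WT gWAT (−0.80 ± 0.13, adjusted p = 0.0243). All KO libraries were below all WT libraries, and WT replicate 1 was the highest. Msmo1, the methylsterol oxidase that starts removal of the C4 methyl groups from the sterol, was at 28.5, 30.6 and 30.9 CPM in KO and 39.8, 47.4 and 54.1 CPM in WT (−0.65 ± 0.13, adjusted p = 0.0327). Here WT replicate 1 was the lowest WT library and still above all KO libraries. Nsdhl, the dehydrogenase that acts after Msmo1, was at 61.5, 51.6 and 53.7 CPM in KO against 106, 84.6 and 82.0 CPM in WT (−0.71 ± 0.13, adjusted p = 0.0285), with WT replicate 1 again the highest.

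Fdft1, squalene synthase, which commits farnesyl diphosphate to sterol, went the other way. It was at 45.5, 46.4 and 44.9 CPM in KO gWAT and 34.0, 33.7 and 33.3 CPM in WT gWAT. The libraries of each group were close together and the groups did not overlap (0.44 ± 0.09, adjusted p = 0.0351). Its exons share 774 bases, 18.3% of its exon length, with Ctsb on the opposite strand, and whether counting used strand is not given in the sources used here. Ctsb, which encodes the lysosomal protease cathepsin B, was far more abundant, at 2782, 2708 and 2999 CPM in KO and 3552, 5698 and 4858 CPM in WT (−0.73 ± 0.21, adjusted p = 0.0773), so it was lower where Fdft1 was higher. The Fdft1 call was lost with library totals in place of scaling factors (adjusted p = 0.0571) and in 1 fit of all libraries (adjusted p = 0.0502). The other late enzymes did not pass: the desaturase Sc5d (−0.53 ± 0.15, adjusted p = 0.0847), the ketosteroid reductase Hsd17b7 (−0.43 ± 0.13, adjusted p = 0.0985), the sterol isomerase Ebp (−0.38 ± 0.11, adjusted p = 0.0758) and the sterol reductase Tm7sf2 (−0.25 ± 0.21, adjusted p = 0.516). KO libraries were below WT libraries without overlap for Sc5d, Hsd17b7 and Ebp. Tm7sf2 shares 532 bases with Vps51 on the same strand, so its reads are uncertain. Overlaps with other genes, of 1.35% to 13.2% of exon length, leave part of the reads of Hmgcs1, Idi1, Lss, Scap, Cyp51 and Nr1h3 uncertain as well.

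**Figure D2:**
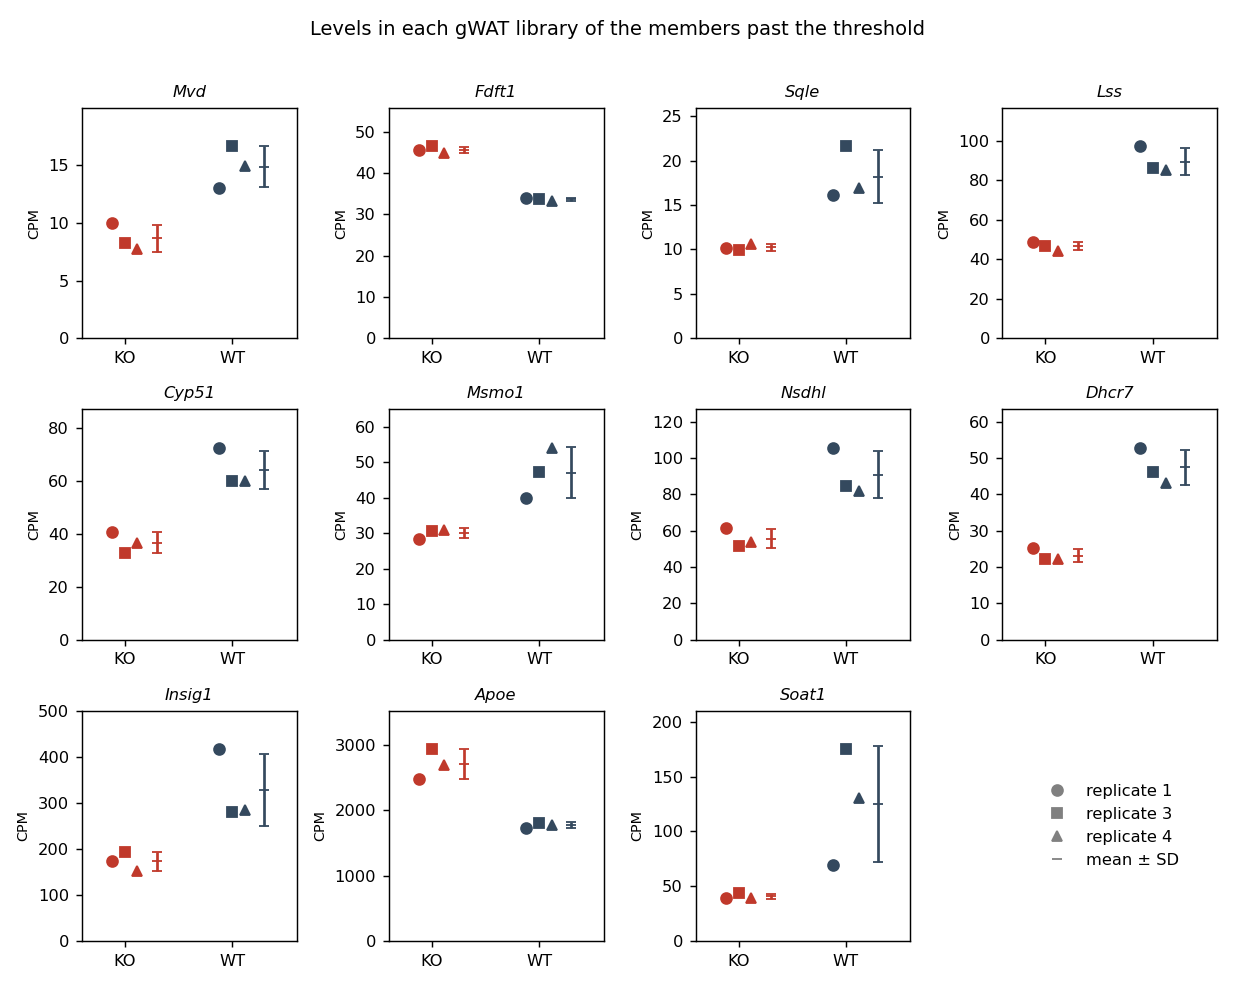
CPM in each gWAT library of the 11 genes past the threshold, KO on the left and WT on the right of each panel, with the mean ± SD (n = 3) beside the points. No panel has overlap between the groups; WT replicate 1 is the lowest WT library for Soat1, at 69.6 CPM, and the highest for Lss, at 97.1 CPM.

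Promoter windows, from 250 bases before to 50 bases after each RefSeq gene start on GRCm38.p6, were found for 25 of the 30 genes (not for Fdps, Fdft1, Sqle, Stard4 and Abcg1). They were searched on both strands, in any window of a gene, for the sterol regulatory element core TCACNCCAC, for the NF-Y motif CCAAT and for the Sp1 motif GGGCGG. The element core was in 1 of the 25, Hmgcs1, and in 1.44% of the 27025 genes of the RefSeq table. The shorter form CACNCCAC, which the core contains, was in 3 (Hmgcs1, Acat2 and Insig1), or 7.12% of all genes, and the core with 1 mismatch in 13, or 26.7% of all genes. CCAAT was in 14 of the 15 synthesis enzymes with a window, the exception being Acat2, in 3 of 4 SREBP control genes and in 1 of 5 LXR and efflux genes, Mylip. It was in 41.1% of all genes and 42.3% of protein-coding ones. GGGCGG was in 14 of 15 synthesis enzymes and 2 of 5 LXR and efflux genes, and in 38.2% of all genes and 49.2% of protein-coding ones. Within the synthesis enzymes the CCAAT motif was thus shared by genes that fell, such as Lss and Dhcr7, and genes that did not pass, such as Hmgcs1 and Ebp. The windows of 4 genes follow, 5′ to 3′ on the strand of the gene: Hmgcs1 (chr13:119690101-119690400, plus strand), the 1 with the full core, Lss (chr10:76531355-76531654, plus strand) and Cyp51 (chr5:4104648-4104947, minus strand), late enzymes that fell, and Insig1 (chr5:28071162-28071461, plus strand), the sensor that fell. Capitals mark CCAAT or its complement ATTGG, and the core or its shorter form in either orientation. GGGCGG is not marked. These 4 were chosen after their values were seen. A match describes the letters and not a site in use.
Hmgcs1: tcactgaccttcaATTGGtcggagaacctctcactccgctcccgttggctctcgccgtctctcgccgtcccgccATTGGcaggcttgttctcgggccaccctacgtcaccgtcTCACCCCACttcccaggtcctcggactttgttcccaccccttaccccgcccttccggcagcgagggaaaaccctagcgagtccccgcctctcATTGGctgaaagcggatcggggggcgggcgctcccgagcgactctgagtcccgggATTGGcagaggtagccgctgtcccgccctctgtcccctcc
Lss: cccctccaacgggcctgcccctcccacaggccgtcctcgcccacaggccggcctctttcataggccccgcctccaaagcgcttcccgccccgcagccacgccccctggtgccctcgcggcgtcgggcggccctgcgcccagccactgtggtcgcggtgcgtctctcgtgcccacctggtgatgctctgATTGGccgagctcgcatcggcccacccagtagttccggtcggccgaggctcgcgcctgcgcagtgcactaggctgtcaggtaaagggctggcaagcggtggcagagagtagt
Cyp51: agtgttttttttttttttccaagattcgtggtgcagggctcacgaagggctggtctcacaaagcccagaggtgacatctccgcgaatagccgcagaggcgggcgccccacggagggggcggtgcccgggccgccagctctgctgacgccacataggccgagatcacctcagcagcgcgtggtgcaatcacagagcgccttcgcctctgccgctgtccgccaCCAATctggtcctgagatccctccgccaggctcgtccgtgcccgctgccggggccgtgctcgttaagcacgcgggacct
Insig1: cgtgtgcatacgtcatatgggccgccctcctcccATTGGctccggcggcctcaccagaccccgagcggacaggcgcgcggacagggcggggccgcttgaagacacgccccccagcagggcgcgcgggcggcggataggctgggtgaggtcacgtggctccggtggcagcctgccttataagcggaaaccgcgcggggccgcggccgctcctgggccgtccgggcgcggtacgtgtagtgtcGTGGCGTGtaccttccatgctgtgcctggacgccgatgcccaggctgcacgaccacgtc

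Hmgcs1 held CCAAT in 4 places, all on the other strand, and Lss, Cyp51 and Insig1 in 1 place each. In Lss the motif began 62 bases before the gene start and in Cyp51 29 bases before. Hmgcs1, the 1 with the full core, did not pass in gWAT. These 4 genes were chosen after their values were seen, so they allow no comparison of motif with fall.

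The genes of SREBP control did not move as a block. Insig1, whose protein retains SCAP and SREBP2 in the endoplasmic reticulum and which is itself switched on by SREBP2, was at 175, 193 and 151 CPM in KO gWAT, against 417, 281 and 284 CPM in WT gWAT. All KO libraries were lower and WT replicate 1 was the highest (log2 fold change −0.92 ± 0.18, adjusted p = 0.0312). Insig2, its paralog with the same retaining role, was at 96.1, 107 and 103 CPM in KO and 84.5, 63.2 and 67.7 CPM in WT. The KO libraries were all higher, but the value missed the threshold (0.51 ± 0.13, adjusted p = 0.0574). It passed with DESeq2, with no filter, with library totals, in 1 fit of all libraries and without WT replicate 1.

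Srebf2, the gene of SREBP2 itself, was at 39.8, 44.0 and 43.7 CPM in KO gWAT and 45.0, 71.3 and 54.3 CPM in WT gWAT (−0.42 ± 0.16, adjusted p = 0.172). The groups did not overlap, though KO replicates 3 and 4 and WT replicate 1 were close. Scap, the escort, was level, at 48.4, 43.0 and 41.0 CPM in KO and 46.5, 44.2 and 43.2 CPM in WT (−0.02 ± 0.10, adjusted p = 0.943). Stard4, a soluble sterol carrier and SREBP2 target, was at 10.1, 15.4 and 12.2 CPM in KO and 12.6, 18.6 and 15.04 CPM in WT, with overlapping groups (−0.29 ± 0.20, adjusted p = 0.425).

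Of the 6 LXR and efflux genes, 0 fell with edgeR, DESeq2 or limma-voom. With edgeR and with DESeq2 1 rose, and with limma-voom 0 rose. The edgeR values were 3 negative and 3 positive, with a median of −0.03. At an unadjusted p under 0.05 there was also 1, Apoe, against 3510 of all 15200 tested genes in gWAT. The median was −0.13 without KO replicate 1 and 0.09 without KO replicate 3. Apoe, the apolipoprotein that carries exported lipid, was at 2482, 2941 and 2701 CPM in KO gWAT and 1726, 1812 and 1784 CPM in WT gWAT. The groups stood well apart and the WT libraries were close together. Its log2 fold change of 0.61 ± 0.14 passed by little (adjusted p = 0.04995) and was lost with RLE scaling (0.0515), library totals (0.0540), limma-voom (0.0535) and a robust dispersion (0.0538).

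The cholesterol exporters that LXR switches on showed no shared direction. Abca1, which loads lipid-poor apolipoprotein, was at 553, 529 and 582 CPM in KO and 559, 438 and 487 CPM in WT gWAT (0.17 ± 0.13, adjusted p = 0.488). Abcg1, which exports to formed particles, was at 94.2, 80.3 and 96.3 CPM in KO and 81.0, 141 and 119 CPM in WT (−0.33 ± 0.19, adjusted p = 0.340), and WT replicates 3 and 4 were its highest libraries. Both had overlapping groups. Mylip, a ubiquitin ligase that marks lipoprotein receptors for breakdown, had −0.07 ± 0.19 (adjusted p = 0.866), with KO replicate 3 lowest at 28.6 CPM and the other libraries between 41.1 and 49.7 CPM. The receptor genes Nr1h3, for LXR alpha (−0.17 ± 0.11, adjusted p = 0.383), and Nr1h2, for LXR beta (0.01 ± 0.11, adjusted p = 0.975), overlapped too.

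Soat1, which esterifies cholesterol for storage and is abundant in foam cells, had the largest fall of the 30 genes. It was at 38.8, 43.6 and 39.5 CPM in KO gWAT, against 69.6, 175 and 130 CPM in WT gWAT. KO libraries agreed closely, WT libraries spread widely, and WT replicate 1 was nearest to KO (−1.62 ± 0.29, adjusted p = 0.0276). Leaving out WT replicate 1 gave −1.91, and leaving out WT replicate 3 gave −1.30.

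Macrophage markers moved with genotype in the same libraries. Of 10 markers of lipid-associated macrophages, such as Trem2 and Gpnmb, 8 fell, and their summed level was 901, 907 and 1001 CPM in KO gWAT and 1700, 6695 and 4974 CPM in WT gWAT. Of 9 general macrophage markers 3 fell, with sums of 1985, 1948 and 2173 CPM in KO and 2268, 4755 and 3734 CPM in WT. Of 6 genes of dividing cells, 6 fell. Of 10 white adipocyte markers 2 rose, Cfd and Retn, with sums of 31001 to 34843 CPM in KO and 22060 to 33033 CPM in WT, and of 6 mesothelial markers 3 rose. Of 6 fibroblast markers 0 passed with edgeR, 4 at an unadjusted p under 0.05, against 0 with limma-voom and 4 with DESeq2 (2 lower, 2 higher). Of 4 endothelial markers 0 passed with any of the 3 tools, and 0 had an unadjusted p under 0.05. None of these markers was at 0 in all gWAT libraries. Of all 15200 tested genes, 3.48% fell, 2.01% rose and 3510 had an unadjusted p under 0.05 with edgeR. In both directions together, DESeq2 called 1769 of them and limma-voom 477.

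The order of WT libraries differed between gene groups. WT replicate 1 had the lowest macrophage sums of the WT libraries and the lowest Soat1. Its summed level of the 18 synthesis enzymes was the highest, 1602 CPM against 1178 and 1290 CPM in WT replicates 3 and 4. The KO libraries were at 929, 1009 and 1020 CPM. Hmgcs1 held much of the difference between WT libraries, at 626 CPM in WT replicate 1 and 361 and 423 CPM in WT replicates 3 and 4. Of the enzymes that fell, Lss, Dhcr7, Cyp51 and Nsdhl were highest in WT replicate 1 among the WT libraries. Mvd, Sqle and Msmo1 were lowest there. The late enzymes in WT replicate 1, at 811 CPM, were likewise above those in the other WT libraries. Sc5d held much of that difference, at 302 CPM in WT replicate 1 and 221 and 267 CPM in WT replicates 3 and 4. Without WT replicate 1 the log2 fold changes of Lss, Dhcr7, Cyp51 and Nsdhl were −0.87, −0.95, −0.71 and −0.58. Each was smaller in size than with that library, and those of Sqle and Msmo1, −0.91 and −0.76, were each larger. These directions follow from the order of the WT libraries. Leaving out the highest lowers the WT mean, and leaving out the lowest raises it. The part of the change in cell markers in the Soat1, Insig1 and enzyme values was not tested.

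**Figure D3:**
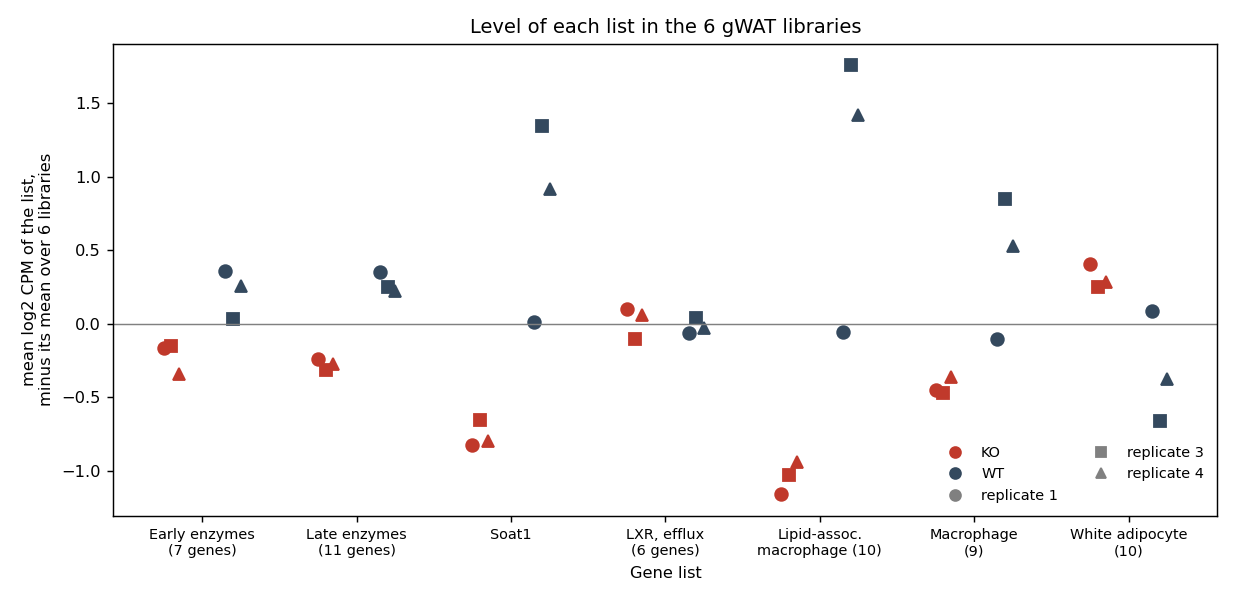
Mean log2 CPM of each gene list in the 6 gWAT libraries, minus its mean over the 6, with KO in red on the left and WT in blue on the right and replicate number as symbol. The mean log2 CPM of early and late enzymes is lower in all KO libraries, LXR and efflux genes overlap, and WT replicate 1 (circle) is the nearest WT library to KO for Soat1 and both macrophage lists and the highest for the enzymes.

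Other genes of sterol and lipid handling were read in the same gWAT fit, where 3.48% of all tested genes fell and 2.01% rose. Of 13 further sterol synthesis, isoprenoid and SREBP-processing genes 1 fell: Tmem97, an SREBP2 target that acts in sterol trafficking, at 9.24, 6.17 and 8.50 CPM in KO and 15.4, 15.9 and 13.8 CPM in WT gWAT (−0.92 ± 0.17, adjusted p = 0.0299). Of 12 genes of sterol uptake, lysosomal release and transfer 2 fell, Lipa, lysosomal acid lipase (−1.72 ± 0.30, adjusted p = 0.0268), and Msr1, a macrophage scavenger receptor (−1.69 ± 0.28, adjusted p = 0.0253). Of 4 tested of 6 oxysterol and ester genes 1 fell, Nceh1, which hydrolyses cholesterol esters (−1.99 ± 0.32, adjusted p = 0.0253). Lipa is also on the list of lipid-associated macrophage markers.

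In gWAT, 3510 of all 15200 tested genes had an unadjusted p under 0.05 with edgeR. Of 9 further LXR targets 0 passed with edgeR, 4 of them at an unadjusted p under 0.05. The nearest were Pltp, the phospholipid transfer protein (−0.90 ± 0.25, adjusted p = 0.0742), and Scd2, a desaturase (−0.57 ± 0.18, adjusted p = 0.109). The values ran from −0.90 to 0.87 with a median of −0.09. Of 7 fatty acid synthesis genes, which SREBP1 governs, 0 passed with edgeR, 2 of them at an unadjusted p under 0.05: Acly, ATP citrate lyase (−0.48 ± 0.12, adjusted p = 0.0540), and Fasn, fatty acid synthase (−0.62 ± 0.19, adjusted p = 0.0900), both with non-overlapping groups, lower in KO. Limma-voom called 0 in both lists. DESeq2 called 3 of the LXR targets, Pltp and Scd2 lower and Scd1 higher. It also called 2 of the fatty acid genes, Acly and Fasn, both lower. Of all 15200 tested genes in gWAT, DESeq2 called 1769 and limma-voom 477.

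In the heart 0 of the 28 tested genes passed in either direction with edgeR, and 0 had an unadjusted p under 0.05. Of all 14159 genes tested in heart, 453 had an unadjusted p under 0.05. Across the whole heart table, 0.00706% of 14159 genes fell, which was Fhl2 alone, and 0% rose. Idi1 and Fdps were left out by the filter, with 1 to 16 reads a library. DESeq2 and limma-voom also gave 0 of the 28. No gene had groups that stood apart, against 1.17% of tested genes with every KO library below and 1.24% with every KO library above. The median was 0.03 over 16 tested synthesis enzymes and 0.08 over the LXR and efflux genes, and −0.003 over all tested genes.

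Heart levels were close between the genotypes. The 18 synthesis enzymes summed to 144 to 150 CPM in KO hearts and 139 to 148 CPM in WT hearts, with overlap. Hsd17b7 had the smallest unadjusted p of the 28 (0.0825), at 13.2, 11.2, 11.9 and 13.2 CPM in KO hearts and 9.94, 12.8, 9.81 and 9.75 CPM in WT hearts (0.23 ± 0.12). WT replicate 2 stood among the KO hearts. Apoe was at 496, 446, 340 and 318 CPM in KO hearts and 389, 400, 289 and 288 CPM in WT hearts (0.23 ± 0.16), and in both genotypes numbers 1 and 2 were above numbers 3 and 4. Markers of atrial muscle split the same way, with summed levels of 4065, 4442, 513 and 888 CPM in KO hearts and 3807, 3156, 90.0 and 124 CPM in WT hearts, and with that level as a covariate 0 of the 28 passed. The median SE of the enzyme fold changes was 0.17 in heart and 0.13 in gWAT.

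Whether the effect of genotype differed between the tissues was tested in 1 fit of all 14 libraries, in which all 30 genes were tested. For 3 the effect differed, against 1.15% of 16014 tested genes. Lss had −0.94 in gWAT and −0.06 in heart, a difference of −0.88 ± 0.17 (adjusted p = 0.0289). In hearts Lss was at 3.13, 3.69, 3.57 and 3.79 CPM in KO and 4.27, 3.60, 3.91 and 2.97 CPM in WT, on 35 reads or more a library. Insig1 differed by −1.09 ± 0.24 (adjusted p = 0.0414) and Soat1 by −1.63 ± 0.36 (adjusted p = 0.0410). In hearts Insig1 was at 15.1, 12.8, 16.4 and 15.7 CPM in KO and 13.3, 10.5, 16.8 and 13.4 CPM in WT, and Soat1 at 9.46, 15.6, 9.996 and 10.4 CPM in KO and 13.8, 12.3, 8.33 and 10.5 CPM in WT, so both overlapped.

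For the other enzymes that fell in gWAT the difference did not pass: −0.80 ± 0.22 for Dhcr7 (adjusted p = 0.0832), −0.71 ± 0.20 for Cyp51 (0.0886), −0.70 ± 0.21 for Msmo1 (0.103), −0.75 ± 0.23 for Nsdhl (0.1104), −0.80 ± 0.34 for Mvd (0.273) and −0.39 ± 0.45 for Sqle (0.733). Insig2 missed at 0.63 ± 0.15 (adjusted p = 0.0526), and Apoe and Fdft1 had 0.38 ± 0.23 and 0.27 ± 0.18 (adjusted p = 0.460 and 0.519). The count of 3 was 8 with DESeq2, 0 with limma-voom, 5 without gWAT WT replicate 1 and 0 without any of the other gWAT libraries. It was 1 without heart KO replicate 1 or WT replicate 1 or 3 and 0 without heart KO replicate 2, 3 or 4 or WT replicate 2 or 4.

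All 30 genes had a higher mean CPM in WT gWAT than in WT heart. The ratio was 24.3 for Lss and Insig1, 23.2 for Acat2 and 20.8 for Sqle, and 1.27 for Stard4, 1.29 for Insig2 and 1.34 for Mylip. For Stard4 the WT libraries overlapped, at 12.6 to 18.6 CPM in gWAT and 10.3 to 14.8 CPM in heart. CPM divide counts by the library total times a scaling factor fitted within each tissue. The ratios therefore compare levels relative to each tissue's own libraries. Per kilobase of exon, Apoe led in gWAT, with a mean of 1267 CPM in KO and 830 CPM in WT. Insig1 followed with 55.9 CPM in KO and 106 CPM in WT, and Hmgcs1 with 81.1 CPM in KO and 102 CPM in WT. Insig1 and Hmgcs1, neighbours in the WT order, overlapped between libraries. Idi1 (0.456 CPM in KO and 0.539 CPM in WT) and Fdps (0.545 CPM in KO and 1.11 CPM in WT) were the lowest.

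**Figure D4:**
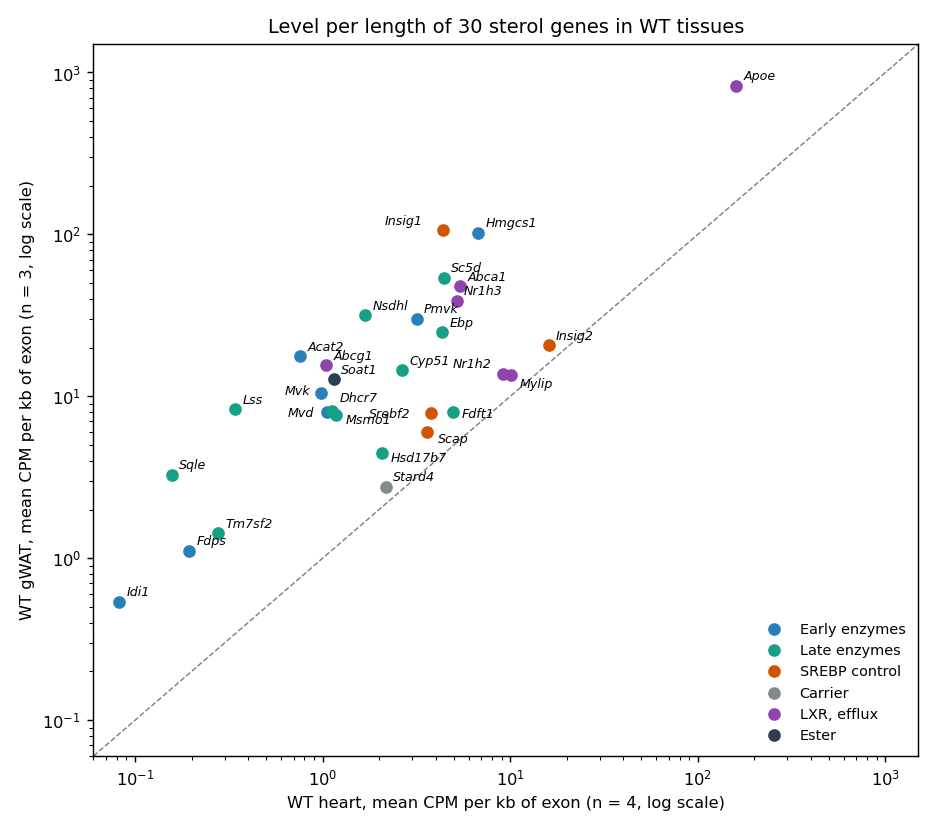
Mean CPM per kilobase of exon in WT gWAT (n = 3, vertical, log scale) against WT heart (n = 4, horizontal, log scale) for each of the 30 genes, coloured by role; the dashed line marks equal levels. All points lie above the line, Stard4 and Insig2 nearest to it and Lss and Insig1 farthest.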

How the data were processed

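mRNA libraries were made from Trizol RNA with the Kapa mRNA HyperPrep kit, per the labels' protocols. The authors deposited raw read counts per Ensembl gene, whole numbers with no normalization, in 1 table for 14 libraries. Per the submitters' processing notes, FastQC, Picard, Trimmomatic 0.32, HISAT2 2.1.0, HTSeq 0.11.0 and limma were used, with build mm10; their roles, the use of strand in counting and the annotation release are not given in these sources. IDs without a symbol held 0.0132% of reads and stayed in the fits unnamed. Columns without a sample numbered 0.

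Analyses used R 4.3.3, edgeR 4.0.16, limma 3.58.1, DESeq2 1.42.0, Python 3.11.15, pandas 2.3.3 and matplotlib 3.10.9. Counts of each tissue were filtered (filterByExpr), scaled (TMM) and tested for KO against WT with edgeR's quasi-likelihood test, adjusted by Benjamini-Hochberg across the table, at a threshold of 0.05. SE is the fold change over the square root of F. Differences between tissues are a contrast in 1 fit of 14 libraries. The scripts were tested on simulated data. The biological coefficient of variation was 0.168 in gWAT and 0.149 in heart. Lists are described by counts and medians, with no list test. Symbols, coordinates and exon lengths came from GENCODE M21, promoters from RefSeq on GRCm38.p6.

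All 30 genes are named. Other genes named are those past the threshold in each list and up to 2 nearest to it; 1 such gene is not reported here. The rule for printing promoters (genes that passed and held the full core) gave 0, so those shown were chosen after their values were seen. Members, lists and tests were chosen with earlier results of these data known.

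Alternatives were RLE size factors, library totals without scaling factors, DESeq2, limma-voom, a looser filter (at least 1 count), a stricter filter (mean count of 10 and mean log2 CPM of 1), robust dispersions, 1 fit of all libraries, a replicate block, an atrial covariate in heart, thresholds of 0.1 and 0.01, and leaving out each library. Pairing was checked by correlating deviations from group means. Same-numbered hearts correlated at 0.252 to 0.365, which met the rule for pairing that every pair exceed 0.1. The rule cannot show pairing here, because some hearts with other numbers correlated as highly (KO 2 with WT 1 at 0.446, KO 4 with WT 3 at 0.317). Numbers 1 and 2, and 3 and 4, deviated together. The main heart test was unpaired. Same-numbered gWAT samples correlated at −0.206 to 0.0121 and did not meet the rule. The 18 pairs of libraries within groups all differed beyond sampling noise (chi-square per degree of freedom of at least 3.74).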

Additional observations from a re-analysis of the deposited data

Results flagged for a closer look

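In the hearts, 5 of 64 group values checked (each gene and 2 list sums, in 4 libraries a group) had a library far from the others, and chance gives about 1 in 20. Hmgcs1 was at 25.4 CPM in KO replicate 1, against 33.9 to 34.3 CPM in the other KO hearts, and Abca1 was at 45.9 CPM in the same library, against 60.5 to 63.1 CPM. Soat1 was at 15.6 CPM in KO replicate 2, against 9.46 to 10.4 CPM in the other KO hearts. Pmvk was at 6.996 CPM in WT replicate 1, against 4.75 to 5.04 CPM in the other WT hearts, and Hsd17b7 at 12.8 CPM in WT replicate 2, against 9.75 to 9.94 CPM.

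The genotype effect differed between gWAT and heart by the test of the difference for Lss (−0.88 ± 0.17), Insig1 (−1.09 ± 0.24) and Soat1 (−1.63 ± 0.36), given above. Among the other sterol and lipid genes it differed for Lipa (−1.69 ± 0.29, edgeR adjusted p = 0.0218) and Nceh1 (−2.11 ± 0.31, adjusted p = 0.0164), which act in lysosomal and cytosolic release of cholesterol from its esters.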

How the results depend on the processing

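With the replicate block, 0 genes fell and 0 rose in gWAT, where the adjusted p of the 11 genes ran from 0.0550 to 0.111 and 0 of 15200 genes passed; gWAT samples share only a number. The block changed no heart call. At a threshold of 0.01, 0 fell, 0 rose and 0 differed between tissues. Of the 2 higher genes 1 was kept with RLE size factors, limma-voom or a robust dispersion, and with library totals both were lost and Insig2 was the 1 higher gene. The 3 tissue differences became 8 with DESeq2, 0 with limma-voom and 7 at a threshold of 0.1. Leaving out 1 library gave 0 to 12 lower and 0 to 3 higher genes in gWAT and 0 to 5 tissue differences. Across the whole gWAT table, leaving out 1 library gave 0 to 2908 calls. It moved the gWAT median from −0.566 to −0.414 for synthesis enzymes and from −0.126 to 0.0860 for LXR and efflux genes, and the heart median of synthesis enzymes from −0.0796 to 0.0320. Promoters with the sterol element core were 13 with 1 mismatch and 3 with the shorter core. The cause of these changes was not tested; fits without a library hold fewer samples. Of 449 single-gene values in gWAT, 69 lost and 17 gained a call, and 0 of 502 in heart gained one. Only the 11 called genes could lose a call, and each kept it in 5 to 10 of 15 alternative settings. Depth limits Idi1 and Fdps in both tissues, and Sqle and Tm7sf2 in heart.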
